A study of Mus musculus with 11 samples.

Results

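Collagen genes were examined in whole skin of neonatal mice in which regulatory T cells (Tregs) were depleted at different times after birth. Members were all genes of the count table whose symbol reads Col, a number, the letter a and a number, which gave 44 of 49315 genes. Of these, 11 code for chains of fibrillar collagens (types I, II, III, V, XI, XXIV and XXVII), 10 for collagens of basement membranes (types IV, VII, XV, XVII and XVIII) and 23 for the other types. All 11 mice carried Foxp3-DTR, a transgene that puts the receptor for diphtheria toxin (DT) under the Foxp3 promoter, so that DT kills the cells that express Foxp3, the transcription factor that defines Tregs. The 2 control mice were injected with PBS in place of DT, on days that the labels do not give. The 3 ΔETreg mice (early depletion) received 30 ng/g DT on days 6 and 8 after birth (P6 and P8) and were sampled on P9. The 3 ΔLTreg mice (late depletion) received the same dose on P10 and P12 and were sampled on P13. The 3 ΔTreg mice received DT on P6, P8, P10 and P12 and were sampled on P13. Each library came from a skin biopsy of 1 mouse.

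Collagens are built from 3 chains wound into a triple helix. Fibrillar collagens assemble outside the cell into the cross-linked fibrils that give the dermis its tensile strength, with type I as the main component, type III beside it and type V at the fibril core, where it helps to set fibril diameter. Type IV forms the sheet-like network of basement membranes under the epidermis and around vessels, nerves and muscle. Type VI forms beaded microfibrils between the fibrils and the cells, and the fibril-associated types, such as XII and XIV, sit on the fibril surface.

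The libraries held 23377571 to 34159435 counts. Foxp3 itself had 20 and 14 counts in the control, 10, 16 and 11 in the ΔETreg, 23, 13 and 13 in the ΔLTreg and 9, 19 and 18 in the ΔTreg libraries. At these low counts every depleted group overlapped with control, so the depletion was not seen in Foxp3 RNA of whole skin. The paper reports efficient depletion in skin by flow cytometry, on P9 for early and P13 for late depletion. The labels give no harvest day for the control mice, and the same 2 control mice served in every comparison with control, so age and depletion cannot be told apart in any comparison with control, for ΔETreg skin as for the groups sampled on P13. ΔTreg and ΔLTreg skin were of the same age and differed by the doses on P6 and P8. 1 library stood apart for the collagens: ΔLTreg mouse 3 was the lowest of its group for 32 of the 41 collagen genes tested (78%, against 40.9% of all genes tested) and for 9 of 10 dermal fibroblast markers. Among ΔETreg mice, mouse 1 was the lowest for 26 of 41 (63.4%, against 34.9% of all genes), and mouse 2 the highest for 28 (68.3%, against 34.6%). Ranges of the counts with each mouse left out are given further on, but not every count is given without each of these mice.

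In control skin, the fibrillar collagens led the levels per transcript length. RPKM, the counts scaled to library size and transcript length, averaged 1320.0 ± 88.8 (SD, n = 2) for Col1a1, 1063 ± 146 for Col1a2 and 1039 ± 202 for Col3a1, the chains of types I and III. The order of Col1a2 and Col3a1 lay within their spread. Next came Col4a1 at 115 ± 3.89, Col6a2 at 109 ± 2.35, Col6a1 at 96.0 ± 6.10, Col4a2 at 85.9 ± 3.52 and Col17a1 at 82.4 ± 3.28 RPKM. Levels then fell through Col18a1, Col5a1, Col6a3, Col16a1, Col5a2 and Col15a1, between 67.9 and 39.1 RPKM, to 12 genes under 0.7 RPKM, among them the cartilage collagen Col2a1 at 0.131 ± 0.00874. Col9a1, Col10a1 and Col19a1 stayed under the filter on low counts in all groups and were not tested, which left 41 collagen genes, and 18375 genes in all.

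All collagens together took 2.60% and 2.29% of the counts of the control mice, 1.88%, 2.98% and 2.33% of those of ΔETreg mice, 2.08%, 2.16% and 1.12% of those of ΔLTreg mice, and 1.37%, 1.35% and 1.51% of those of ΔTreg mice. Every ΔTreg mouse thus lay below both control mice and all ΔETreg mice, while ΔLTreg mouse 3 was the lowest of all 11. The mean of the control mice was 2.45% ± 0.221 (SD, n = 2), and that of the ΔETreg, ΔLTreg and ΔTreg mice 2.39% ± 0.554, 1.79% ± 0.576 and 1.41% ± 0.0871 (n = 3 each). Without Col1a1, Col1a2 and Col3a1 the means were 0.538%, 0.538%, 0.388% and 0.429%, with ΔLTreg skin the lowest in place of ΔTreg skin. By class, the fibrillar share was 2.00% ± 0.220 in control and 1.03% ± 0.0752 in ΔTreg skin. The basement membrane share was 0.247% ± 0.00648 and 0.193% ± 0.00865 in these groups. The share of the other types was 0.201% ± 0.00675 in control and 0.185% ± 0.0148 in ΔTreg skin, but 0.127% ± 0.0320 in ΔLTreg skin. In whole skin, fewer cells of a type and less RNA per cell cannot be told apart.

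**Figure D1:**
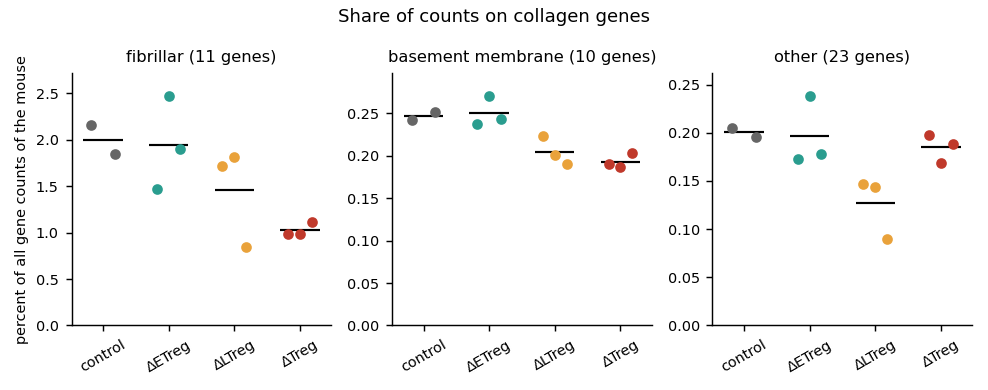
Percent of each mouse's gene counts that fell on fibrillar, basement membrane and other collagen genes. Each point is 1 mouse, bars are group means and each panel has its own linear axis starting at 0; fibrillar shares were 0.981% to 1.12% in ΔTreg and 1.85% and 2.16% in control mice, and ΔLTreg mouse 3 was at 0.844%.

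Genes were compared between groups with edgeR's quasi-likelihood test, and a gene was said to rise or fall where its Benjamini-Hochberg adjusted p over all genes tested was under 0.05. In ΔETreg skin no collagen gene differed from control (0 of 41, against 0.00544% of all genes tested). None reached an unadjusted p under 0.05 either, and DESeq2 also called 0. The fold changes ran from -0.48 for Col6a5 to 0.43 for Col6a4 with a median of -0.07 on the log2 scale. In ΔLTreg skin 11 of 41 differed from control (4.55% of all genes tested did): 10 fell (2.69% fell) and 1 rose (1.86% rose), with a median of -0.54 against 0.0040 over all genes. In ΔTreg skin 19 of 41 differed (21.5% of all genes did): 17 fell against control (9.39% fell) and 2 rose (12.1% rose), with a median of -0.47 against -0.0059 over all genes. Of the same-age P13 groups, 8 of 41 collagen genes differed (16.8% of all genes did): in ΔTreg skin 5 stood higher than in ΔLTreg skin (10.7% were higher) and 3 lower (6.11% were lower), around a median of -0.011. ΔETreg skin, sampled 4 days earlier, differed from ΔLTreg skin in 11 of 41 (6.38% of all genes did), with 10 higher (3.27%) and 1 lower (3.12%), with a median of 0.45.

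By class, the counts were as follows. Of 11 fibrillar genes, 2 fell in ΔLTreg and 4 in ΔTreg skin against control. Of 10 basement membrane genes, 3 and 6 fell, with class medians of -0.47 and -0.51. Of the 20 other genes tested, 5 fell and 1 rose in ΔLTreg, and 7 fell and 2 rose in ΔTreg skin. Of all genes tested, 2.69% fell and 1.86% rose in ΔLTreg, and 9.39% fell and 12.1% rose in ΔTreg skin against control. Between ΔTreg and ΔLTreg skin all 5 higher genes were chains of type VI, 5 of the 6 in that type (10.7% of all genes were higher). The counts depended on single mice. In ΔLTreg skin against control, 5 in place of 10 collagens fell without control mouse 2, 6 without control mouse 1 or ΔLTreg mouse 2, and 3 with edgeR on the 2 groups compared alone. Without ΔLTreg mouse 3, 7 in place of 3 collagens were lower in ΔTreg than in ΔLTreg skin, and without control mouse 1 only 10 in place of 17 fell in ΔTreg skin against control.

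**Figure D2:**
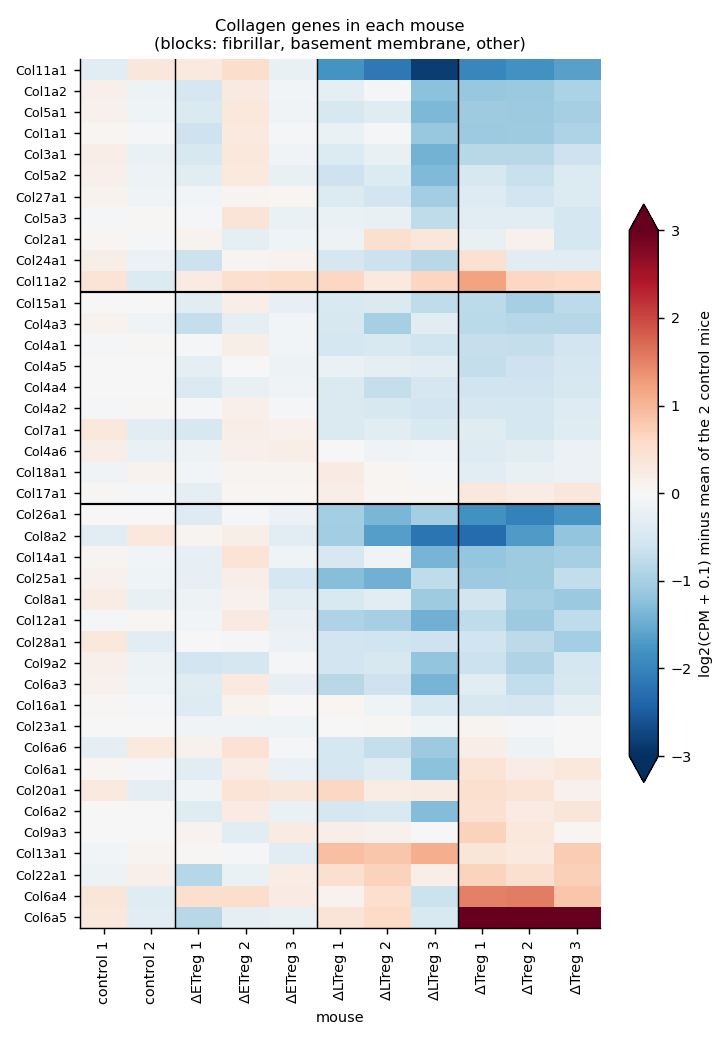
Level of the 41 collagen genes tested in each of the 11 mice, as log2(CPM + 0.1) minus the mean of the 2 control mice; rows are genes, in blocks for fibrillar, basement membrane and other collagens, columns are mice, and the colour scale ends at -3 and 3. Col11a1 and Col26a1 are below control in all 6 mice of the P13 groups, Col6a5 is above control in the 3 ΔTreg mice, and ΔLTreg mouse 3 is the lowest of its group for 32 genes.

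**Figure D3:**
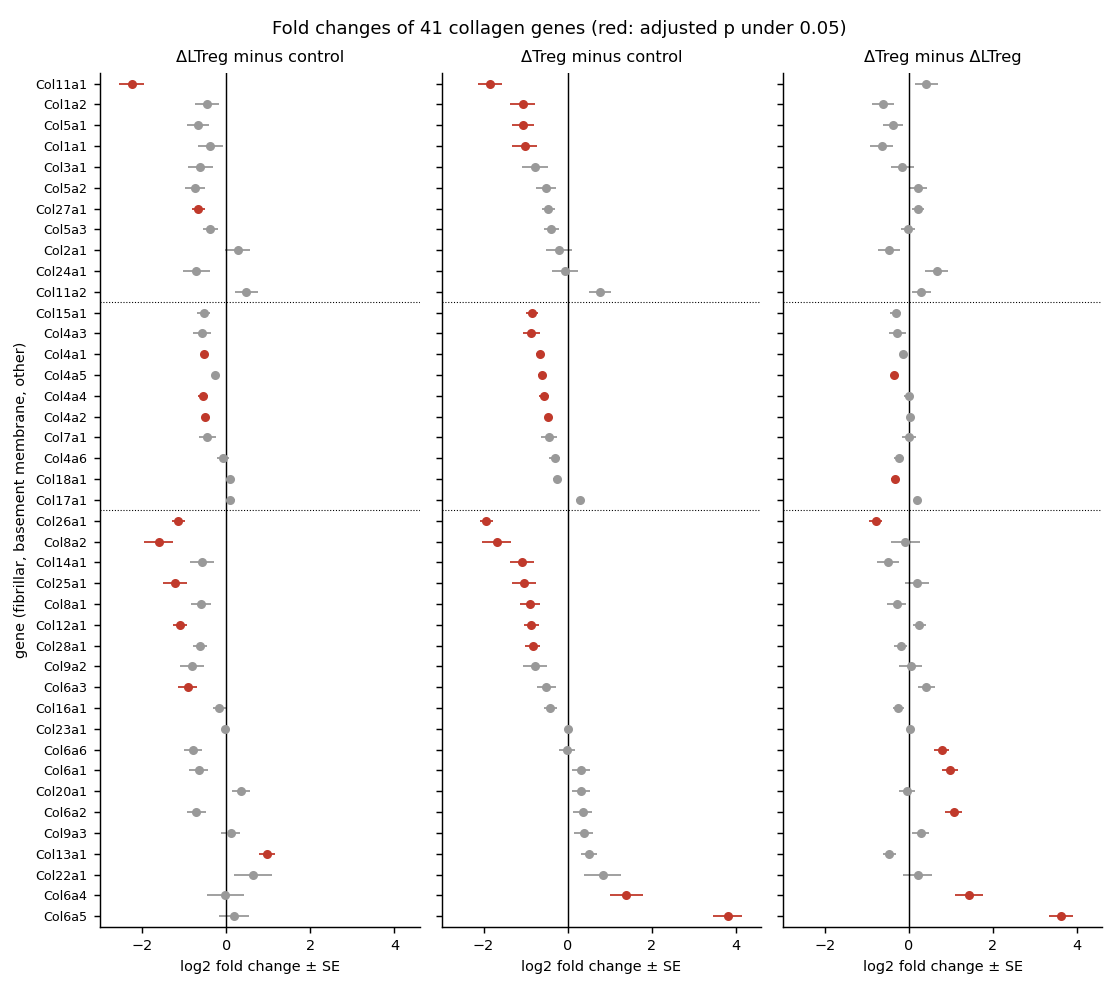
Log2 fold change ± SE of each collagen gene for ΔLTreg against control, ΔTreg against control and ΔTreg against ΔLTreg, from the edgeR fit; red points passed an adjusted p of 0.05. Most points lie left of 0 in the first 2 panels (32 and 30 of 41 negative), while in the third the red points right of 0 are Col6a1, Col6a2, Col6a4, Col6a5 and Col6a6.

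Among the fibrillar collagens, the chains of type I were lower in ΔTreg than in control skin. Col1a1 (ENSMUSG00000001506, chr11:94936224-94953042, plus strand, GRCm38) stood at 8200.0 and 7456 CPM in the control mice, 5088, 9637 and 7575 in the ΔETreg mice, 6864, 7655 and 3579 in the ΔLTreg mice and 3682, 3723 and 4136 in the ΔTreg mice. All 3 ΔTreg mice lay below both control mice, but ΔLTreg mouse 3 was as low as they were. Col1a1 fell in ΔTreg skin against control, 2.03-fold lower (log2 fold change -1.02 ± 0.29, SE, adjusted p = 0.03), and the value against ΔLTreg skin was -0.65 ± 0.27, SE, adjusted p = 0.128. Its partner chain Col1a2 stood at 6236 and 5131 CPM in the control mice, 3978, 6863 and 5364 in the ΔETreg mice, 4631, 5405 and 2419 in the ΔLTreg mice and 2576, 2626 and 2915 in the ΔTreg mice. It too fell in ΔTreg skin against control (-1.07 ± 0.29, SE, adjusted p = 0.0228). Both calls against control were lost when either control mouse, or ΔTreg mouse 1 or 2, was left out (Col1a1 also without ΔTreg mouse 3), with the adjusted p rising to as much as 0.107 for Col1a1 and 0.108 for Col1a2. Without ΔLTreg mouse 3, both were lower in ΔTreg than in ΔLTreg skin, at -0.91 (adjusted p = 0.00981) for Col1a1 and -0.89 (adjusted p = 0.00739) for Col1a2.

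Col3a1, the chain of type III, did not pass in any comparison. It stood at 6574 and 4985 CPM in the control mice, 4105, 7179.9 and 5335 in the ΔETreg mice, 4285, 4878 and 2158 in the ΔLTreg mice and 3194, 3204 and 3709 in the ΔTreg mice. Its value in ΔTreg skin against control was -0.78 ± 0.30, SE, adjusted p = 0.0929. The ΔTreg mice lay below both control mice but inside the ΔLTreg range. Of the type V chains, which help to regulate fibrils, Col5a1 fell. It stood at 541 and 459 CPM in the control mice, 368, 625 and 460.2 in the ΔETreg mice, 356, 389.8 and 195 in the ΔLTreg mice and 237, 232 and 251 in the ΔTreg mice. It was lower in ΔTreg skin than in control (-1.06 ± 0.26, SE, adjusted p = 0.0142), a call lost only without control mouse 1 among the mice left out in turn. Col5a2 stood at 295 and 239.5 CPM in the control mice, 211, 325 and 227 in the ΔETreg mice, 172, 201 and 106 in the ΔLTreg mice and 192, 167 and 199.6 in the ΔTreg mice. Its value in the same comparison was -0.52 ± 0.24, SE, adjusted p = 0.15. Col5a3 was between 47.6 and 106 CPM in all mice and passed nowhere.

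The largest change of a fibrillar gene was in Col11a1, a chain of the type XI collagen best known from cartilage fibrils (ENSMUSG00000027966, chr3:114030540-114220718, plus strand). It stood at 41.7 and 66.8 CPM in the control mice, 65.2, 75.7 and 44.9 in the ΔETreg mice, 15.1, 11.9 and 7.23 in the ΔLTreg mice and 13.5, 15 and 16.9 in the ΔTreg mice. Every mouse of the P13 groups lay below every control and ΔETreg mouse. Col11a1 was 4.76-fold lower in ΔLTreg (-2.25 ± 0.29, SE, adjusted p = 0.00213) and 3.57-fold lower in ΔTreg skin than in control (-1.84 ± 0.29, SE, adjusted p = 0.00107). It was 5.44-fold higher in ΔETreg than in ΔLTreg skin (2.44 ± 0.27, SE, adjusted p = 0.00098). These 3 calls held under all alternatives and whichever mouse was left out. ΔTreg and ΔLTreg skin overlapped and were not told apart (0.41, adjusted p = 0.347). Of the 6 cartilage markers listed, 3 passed the filter on low counts and 1 of them, Acan, the aggrecan core protein, fell in ΔLTreg (-2.45, adjusted p = 0.00554) and in ΔTreg skin (-2.40, adjusted p = 0.00105). In these comparisons 2.69% and 9.39% of all genes fell. The CPM of Acan was 3.22 and 7.89 (control) and 7.31, 6.84 and 4.63 (ΔETreg), against 1.31, 0.863 and 0.814 (ΔLTreg) and 0.815, 1.01 and 1.27 (ΔTreg). The 6 markers summed to 4.48 to 9.12 CPM in control and 5.70 to 8.29 in ΔETreg mice, but to 1.44 to 2.65 in ΔLTreg and 2.02 to 2.29 CPM in ΔTreg mice. Most of the sum in control and ΔETreg mice was Acan. Chad and Hapln1, a matrix protein and a link protein of cartilage, did not pass. Chad was at 0.630 and 0.598 CPM in the control, 0.376 to 0.706 in the ΔLTreg and 0.680 to 0.831 CPM in the ΔTreg mice. Hapln1 was at 0.525 and 0.558 CPM in the control and 0.250 to 0.627 CPM in the ΔLTreg mice. In the ΔTreg mice Hapln1 was at 0.247 to 0.356 CPM, below both control mice. Matn3 had at most 5 counts a library. Matn1 and Cnmd, which mark cartilage cells, were at 0 counts in both control mice. The cartilage collagens Col2a1 and Col11a2 were at 0.433 to 0.98 and at 1.79 to 5.70 CPM in all mice and did not pass in any comparison. Nor did Col9a2 and Col9a3, of cartilage type IX. Col9a2 was at 0.470 to 0.823 CPM in ΔLTreg and 0.594 to 0.804 CPM in ΔTreg mice, below 1.33 and 1.08 CPM in the control mice. Col9a3 was at 1.91 to 2.24 CPM in ΔLTreg and 2.04 to 3.17 CPM in ΔTreg mice, against 1.93 and 1.95 CPM in the control mice. The part of cartilage cells in the Col11a1 result was not tested.

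For Col11a1, the bases before its start site are shown with those of 2 type VI chains described further on, as a look at the promoters of the genes that moved most and of Col6a3, the type VI chain that did not pass against ΔLTreg skin. Each run holds the 250 bases upstream of a RefSeq start site (GRCm38.p6), 5′ to 3′ on the gene's strand, with motif matches in capitals. RefSeq promoters were matched for 35 of the 44 genes.
Col11a1, plus strand, chr3:114030290-114030539: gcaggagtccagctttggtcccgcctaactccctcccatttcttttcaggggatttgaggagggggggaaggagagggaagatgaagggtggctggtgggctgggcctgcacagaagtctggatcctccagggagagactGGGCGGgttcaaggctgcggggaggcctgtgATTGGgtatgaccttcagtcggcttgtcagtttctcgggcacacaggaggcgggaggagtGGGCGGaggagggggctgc
Col6a5, minus strand, chr9:105960644-105960893: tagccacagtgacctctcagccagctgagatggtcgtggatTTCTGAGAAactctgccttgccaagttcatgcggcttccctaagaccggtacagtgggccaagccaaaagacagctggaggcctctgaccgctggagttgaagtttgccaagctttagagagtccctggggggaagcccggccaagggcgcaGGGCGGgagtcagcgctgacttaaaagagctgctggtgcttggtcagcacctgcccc
Col6a3, minus strand, chr1:90843972-90844221: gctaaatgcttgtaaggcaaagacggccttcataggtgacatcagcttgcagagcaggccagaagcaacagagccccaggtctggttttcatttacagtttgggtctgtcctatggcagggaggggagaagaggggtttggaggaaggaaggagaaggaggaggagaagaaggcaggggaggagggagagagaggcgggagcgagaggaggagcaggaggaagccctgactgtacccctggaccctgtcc
The Col11a1 run held GC boxes starting 110 and 19 bases before the start site and a CCAAT box, on the other strand, 79 bases before it. The Col6a5 run held a GC box 57 bases before the start site and, 209 bases before it, the interferon-activated motif GAS. No motif searched was found in the Col6a3 run, and no matches overlapped in the runs shown. GAS was not found in the matched promoters of Col6a1, Col6a2, Col6a4 and Col6a6. Among the other collagen promoters matched, only that of Col28a1, which fell in ΔTreg skin against control, held GAS. The motifs, searched on both strands, were the TATA box TATAAA (in 12.4% of 32851 windows of the same length), the CCAAT box (33.8%), the GC box GGGCGG (32.7%) and GAS as TTCNNNGAA (7.02%). Also searched were the STAT6 site, which has 1 base more between its ends (5.85%), the SMAD box GTCTAGAC (0.167%) and the AP-1 site TGANTCA (6.75%). A match is a run of letters and no evidence of binding.

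The minor fibrillar collagen Col27a1, which is expressed in cartilage and epithelia, stood at 11.2 and 9.8 CPM in the control mice, 9.82, 11.2 and 11 in the ΔETreg mice, 7.81, 6.98 and 5.07 in the ΔLTreg mice and 7.98, 7.04 and 7.91 in the ΔTreg mice. It was lower in ΔLTreg skin than in control (-0.67, adjusted p = 0.0395) and than in ΔETreg skin, which was higher by 0.69, adjusted p = 0.0198. The first call held in 3 of 11 runs that left out 1 mouse and the second in 9 of 11. Col24a1, another minor fibrillar chain, ran from 1.03 to 2.66 CPM and passed nowhere.

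Among the 10 basement membrane collagens, the 6 that fell in ΔTreg skin were 1.38- to 1.82-fold lower than in control. Col4a1, a chain of the network found in all basement membranes, stood at 744 and 780.4 CPM in the control mice, 731, 856 and 719 in the ΔETreg mice, 531, 557 and 507 in the ΔLTreg mice and 470.4, 465 and 508 in the ΔTreg mice. Col4a2, its partner, stood at 538 and 570.3 CPM in the control mice, 537, 614 and 536 in the ΔETreg mice, 408, 399 and 369 in the ΔLTreg mice and 389.5, 387 and 425 in the ΔTreg mice. For both, all 6 mice of the P13 groups were below all control and ΔETreg mice. Col4a1 was 1.43-fold lower than control in ΔLTreg (-0.52 ± 0.08, SE, adjusted p = 0.00773) and 1.58-fold lower in ΔTreg skin (-0.66 ± 0.08, SE, adjusted p = 0.0003). Col4a2 was 1.41-fold lower in ΔLTreg (-0.50 ± 0.08, SE, adjusted p = 0.00689) and 1.38-fold lower in ΔTreg skin (-0.47 ± 0.08, SE, adjusted p = 0.00179). The 2 genes stand head to head on chromosome 8 (Col4a1 ENSMUSG00000031502, chr8:11198423-11312826, minus strand; Col4a2 ENSMUSG00000031503, chr8:11312805-11449287, plus strand), with 22 bases of their exons overlapping. With only the 2 groups compared in the fit, ΔLTreg skin no longer passed against control for either gene, with adjusted p of 0.0806 for Col4a1 and 0.0823 for Col4a2. For Col4a1 that call was also lost without control mouse 2.

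Of the 4 specialised type IV chains, 3 also fell in ΔTreg skin. Col4a5, which pairs with Col4a6 in the epidermal basement membrane, stood at 50 and 49.3 CPM in the control mice, 41.3, 49.5 and 44.3 in the ΔETreg mice, 43.5, 41.1 and 39.3 in the ΔLTreg mice and 30.4, 32.2 and 34.8 in the ΔTreg mice. It was the 1 type IV chain lower in ΔTreg than in ΔLTreg skin (-0.35 ± 0.07, SE, adjusted p = 0.00836) and fell against control as well (-0.61 ± 0.08, SE, adjusted p = 0.0004), both under all alternatives and without any 1 mouse. Col4a3 and Col4a4, partners of Col4a5 in other tissues, stood at 3.74 to 3.90 and at 8.79 to 9.43 CPM in ΔTreg mice, below 6.33 and 7.46 and below 13.1 and 13.4 CPM in the control mice (-0.86, adjusted p = 0.0149, for Col4a3, and -0.56, adjusted p = 0.00581, for Col4a4). Col4a4 also fell in ΔLTreg skin (-0.55, adjusted p = 0.0251). That call was lost with edgeR on the 2 groups compared and without control mouse 1, control mouse 2 or ΔLTreg mouse 2. The Col4a3 call in ΔTreg skin was lost without control mouse 1. Of Col4a3's exon bases, 5.65% are shared with another gene. Col4a6 ran from 13.5 to 20.1 CPM and passed nowhere.

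Of the other basement membrane collagens, Col15a1, a proteoglycan collagen of vessels and muscle, fell in ΔTreg skin and Col18a1, its relative that releases endostatin, was lower there than in ΔLTreg skin. Col15a1 stood at 203 and 202 CPM in the control mice, 159.7, 233 and 171 in the ΔETreg mice, 149, 150.1 and 119.8 in the ΔLTreg mice and 117, 101 and 118 in the ΔTreg mice. Its value in ΔTreg skin against control was -0.85 ± 0.15, SE, adjusted p = 0.00199. Col18a1 stood at 299 and 351 CPM in the control mice, 307, 342 and 345 in the ΔETreg mice, 383, 340.2 and 316 in the ΔLTreg mice and 261, 276 and 288 in the ΔTreg mice. It was 0.34 lower on the log2 scale in ΔTreg than in ΔLTreg skin (adjusted p = 0.0219), a call lost without ΔLTreg mouse 1, ΔTreg mouse 1 or ΔTreg mouse 2.

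The collagens that fix the epidermis to the dermis did not pass. Col7a1, which makes anchoring fibrils, stood at 128 and 83.4 CPM in the control mice, 74.6, 119 and 114 in the ΔETreg mice, 76.6, 81.4 and 75.3 in the ΔLTreg mice and 80.9, 71.5 and 80.4 in the ΔTreg mice. All 6 mice of the P13 groups lay below both control mice, with -0.45, adjusted p = 0.225 in ΔLTreg and -0.45, adjusted p = 0.126 in ΔTreg skin, and the control mice themselves were far apart. Col17a1, a transmembrane collagen of hemidesmosomes, stood at 464 and 439 CPM in the control mice, 377, 468 and 468 in the ΔETreg mice, 519.9, 467 and 465 in the ΔLTreg mice and 561, 531 and 572 in the ΔTreg mice. All 3 ΔTreg mice were the highest of all mice, with 0.30 ± 0.10, SE, adjusted p = 0.0517 against control, where DESeq2 called it (adjusted p = 0.000245). The 7 basal keratinocyte markers, from the cells that make Col17a1, summed to 7864 and 8421 CPM in control and to 9504 to 9792 CPM in ΔTreg skin. Of the 7, 1 rose, Krt14 (0.40, adjusted p = 0.018), where 12.1% of all genes tested rose. The part of keratinocyte number in the Col17a1 values was not tested.

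Type VI held all 5 collagen genes that were higher in ΔTreg than in ΔLTreg skin. The log2 fold changes of its 6 chains were all above 0 in that comparison, with a median of 1.02. Col6a1, shared by all type VI molecules, stood at 411 and 376 CPM in the control mice, 310.0, 457 and 339.9 in the ΔETreg mice, 276, 303 and 168 in the ΔLTreg mice and 525, 458 and 489.6 in the ΔTreg mice. Col6a2, its constant partner, stood at 435 and 422 CPM in the control mice, 334, 507 and 375 in the ΔETreg mice, 300.0, 312 and 173 in the ΔLTreg mice and 584, 505 and 555 in the ΔTreg mice. All ΔTreg mice were above all control mice and all ΔLTreg mice were below them for both chains. Col6a1 was 1.97-fold (0.98 ± 0.20, SE, adjusted p = 0.00589) and Col6a2 2.09-fold higher in ΔTreg than in ΔLTreg skin (1.07 ± 0.20, SE, adjusted p = 0.00438), under all alternatives and without any 1 mouse. Against control neither passed in either group, with 0.32, adjusted p = 0.341, for Col6a1 and 0.35, adjusted p = 0.305, for Col6a2 in ΔTreg skin, where DESeq2 called both (adjusted p = 0.00187 and 0.000198).

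The third chain of the type VI molecule is Col6a3 or, in its place, Col6a4, Col6a5 or Col6a6. Col6a5 (ENSMUSG00000091345, chr9:105856078-105960643, minus strand) stood at 4.06 and 2.55 CPM in the control mice, 1.78, 2.66 and 2.74 in the ΔETreg mice, 4.26, 4.9 and 2.32 in the ΔLTreg mice and 61.8, 42.9 and 35.8 in the ΔTreg mice. It was thus at low levels in 8 mice and at 35.8 CPM or more in each ΔTreg mouse. Col6a5 was 12.3-fold higher in ΔTreg than in ΔLTreg skin (3.62 ± 0.29, SE, adjusted p = 1.5e-05) and 14-fold higher than in control (3.81 ± 0.35, SE, adjusted p = 3.1e-05), the largest change of any collagen gene. It kept these calls under all alternatives and without any 1 mouse. Counts were 1159 to 1444 in ΔTreg mice and 64 to 116 in control mice, so depth did not limit the difference.

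Col6a4 and Col6a6 lie on either side of Col6a5 in a row on the minus strand of chromosome 9. Col6a4 stood at 0.665 and 0.359 CPM in the control mice, 0.731, 0.756 and 0.6 in the ΔETreg mice, 0.536, 0.745 and 0.282 in the ΔLTreg mice and 1.59, 1.6 and 0.958 in the ΔTreg mice, from 9 to 54 counts a library. It rose in ΔTreg skin against both ΔLTreg (1.42 ± 0.34, SE, adjusted p = 0.0147) and control (1.40 ± 0.39, SE, adjusted p = 0.0278). Of its exon bases 3.39% are shared with other genes, and both calls were lost without ΔTreg mouse 1 or mouse 2. Col6a6 stood at 20.6 and 30.4 CPM in the control mice, 27.4, 33.8 and 23.8 in the ΔETreg mice, 17.2, 15.3 and 11.7 in the ΔLTreg mice and 28.6, 22.4 and 24.7 in the ΔTreg mice. ΔLTreg mice were the lowest for Col6a6, below ΔTreg (0.77 ± 0.18, SE, adjusted p = 0.0144) and below ΔETreg skin (0.95, adjusted p = 0.0149). The first call was lost without ΔTreg mouse 1 (adjusted p = 0.0628) and the second without ΔETreg mouse 2 (adjusted p = 0.0705).

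Col6a3, which usually joins Col6a1 and Col6a2, stood at 519.6 and 439 CPM in the control mice, 368, 583 and 403 in the ΔETreg mice, 268, 311 and 182 in the ΔLTreg mice and 382, 285 and 343 in the ΔTreg mice. The ΔTreg mice lay below both control mice and above 2 of the 3 ΔLTreg mice, with 0.41 ± 0.21, SE, adjusted p = 0.211 against ΔLTreg and -0.51 ± 0.23, SE, adjusted p = 0.145 against control. Its fall in ΔLTreg skin against control (-0.92, adjusted p = 0.0475) held in 3 of 11 runs without 1 mouse. The sums of T cell and macrophage markers were also higher in ΔTreg than in ΔLTreg skin. In every ΔLTreg mouse Col6a1 and Col6a2 were below both control mice. The T cell sums of the ΔLTreg mice were 17.2 to 19.4 CPM, against 15.6 and 17.7 CPM in control. Their macrophage sums were 126, 189 and 83.3 CPM, against 196 and 148 CPM in control. The 6 T cell markers summed to 14.9 to 19.4 CPM in the other groups and to 47.9 to 59.9 CPM in ΔTreg skin, and the 5 macrophage markers to 83.3 to 196 and to 334 to 459 CPM. None of these markers was at 0 counts in every mouse of a group, and all 11 were higher in ΔTreg than in ΔLTreg skin. Of all genes tested, 10.7% were higher and 6.11% lower in that comparison. Of 10 dermal fibroblast markers 1 was higher, Pdgfra (1.02, adjusted p = 0.01), and 1 lower, Dlk1 (-2.49, adjusted p = 0.0001), and their sums were 455 to 641 in ΔLTreg and 514 to 547 CPM in ΔTreg skin. The part of cell numbers in the type VI result was not tested.

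**Figure D4:**
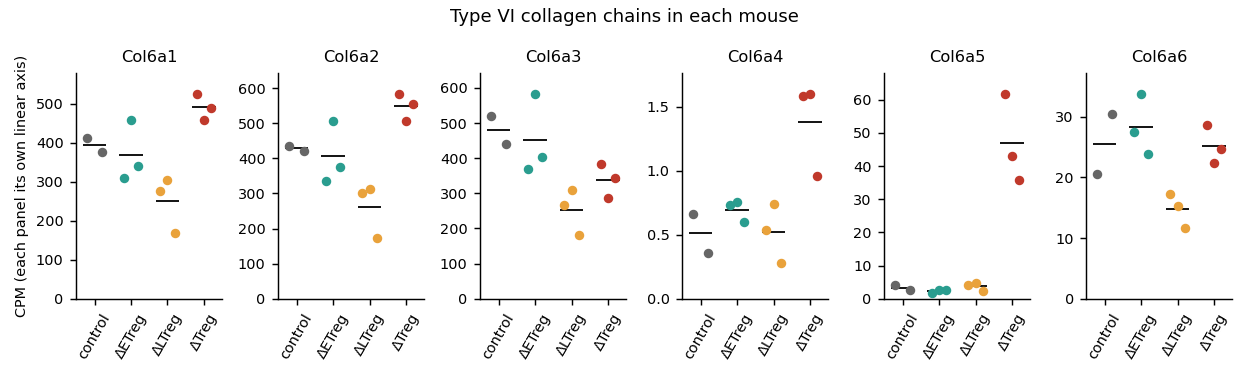
CPM of the 6 type VI collagen chains in each mouse; points are mice, bars are group means and each panel has its own linear axis starting at 0. The 3 ΔTreg mice are above all other mice for Col6a1, Col6a4 and Col6a5, with Col6a5 at 35.8 to 61.8 against 1.78 to 4.90 CPM elsewhere, but not for Col6a3.

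Of the 7 fibril-associated collagens tested, Col12a1 fell in both P13 groups against control and Col14a1 in ΔTreg skin. Col12a1, which coats fibrils in dense and loaded tissue, stood at 211 and 231 CPM in the control mice, 209, 268 and 188 in the ΔETreg mice, 116, 111 and 81 in the ΔLTreg mice and 129.7, 104 and 131 in the ΔTreg mice. All 6 mice of the P13 groups were below the other 5. It was 2.15-fold lower in ΔLTreg (-1.10 ± 0.17, SE, adjusted p = 0.00606) and 1.82-fold lower in ΔTreg skin (-0.86 ± 0.17, SE, adjusted p = 0.00439), under all alternatives. Col14a1, a relative that limits fibril growth, stood at 145 and 130.2 CPM in the control mice, 116, 184 and 126 in the ΔETreg mice, 98, 127 and 52.5 in the ΔLTreg mice and 61.2, 65 and 68.8 in the ΔTreg mice. It fell in ΔTreg skin (-1.08 ± 0.29, SE, adjusted p = 0.0209), held in 7 of 11 runs without 1 mouse, and without ΔLTreg mouse 3 it was also lower than in ΔLTreg skin (-0.79, adjusted p = 0.00939). Col16a1, Col20a1, Col22a1, Col9a2 and Col9a3, of the same family, passed in no comparison. Against control the fold changes of Col20a1, Col22a1 and Col9a3 were above 0 in both P13 groups and those of Col16a1 and Col9a2 below 0. Of these 5, only Col16a1, at 177 to 267 CPM, was above 6 CPM in any mouse.

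Col26a1, a short collagen of little-known function (ENSMUSG00000004415, chr5:136741759-136883209, minus strand), was the 1 collagen gene that passed in all 3 comparisons among control, ΔLTreg and ΔTreg skin. It stood at 7.35 and 7.13 CPM in the control mice, 5.5, 7.03 and 6.43 in the ΔETreg mice, 3.55, 2.74 and 3.54 in the ΔLTreg mice and 1.97, 1.69 and 2.04 in the ΔTreg mice, with no overlap between these 3 groups. It fell in ΔLTreg (-1.14 ± 0.15, SE, adjusted p = 0.00244) and in ΔTreg skin (-1.93 ± 0.16, SE, adjusted p = 1.5e-05) and was lower in ΔTreg than in ΔLTreg skin (-0.79 ± 0.15, SE, adjusted p = 0.00425), under all alternatives and without any 1 mouse. Its counts were between 46 and 214 a library.

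The network-forming type VIII chains, which line vessels and the cornea, fell as well. Col8a2 stood at 10.9 and 17.1 CPM in the control mice, 14.4, 15.5 and 10.7 in the ΔETreg mice, 6.53, 4.27 and 2.88 in the ΔLTreg mice and 2.66, 4.16 and 5.97 in the ΔTreg mice. It was 3.05-fold lower in ΔLTreg (-1.61 ± 0.35, SE, adjusted p = 0.0287) and 3.23-fold lower in ΔTreg skin than in control (-1.69 ± 0.35, SE, adjusted p = 0.00581). The ΔLTreg call was lost with edgeR on the 2 groups compared and without control mouse 1, control mouse 2 or ΔLTreg mouse 2. The ΔTreg call was lost without control mouse 2. Col8a1 stood at 28.6 and 21.1 CPM in the control mice, 22.2, 27 and 19.4 in the ΔETreg mice, 17.9, 19.8 and 11.6 in the ΔLTreg mice and 16.8, 12.2 and 11.3 in the ΔTreg mice. It passed in ΔTreg skin alone (-0.90 ± 0.24, SE, adjusted p = 0.0201), where 3 of 11 runs without 1 mouse lost the call. Of the 7 endothelial markers, 4 were lower and 1 was higher in ΔTreg than in ΔLTreg skin (6.11% of all genes were lower and 10.7% higher). Their sums were 239 to 248 CPM in ΔTreg skin, 246 to 251 CPM in ΔLTreg skin, and 224 and 244 CPM in control. The part of vessels in these values was not tested.

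Of the transmembrane collagens, 1 rose and 1 fell. Col13a1, which clusters receptors at the neuromuscular junction, stood at 2.31 and 2.59 CPM in the control mice, 2.51, 2.4 and 1.93 in the ΔETreg mice, 4.65, 4.43 and 5.29 in the ΔLTreg mice and 3.17, 3 and 4.2 in the ΔTreg mice. It was the 1 collagen higher in ΔLTreg skin than in control (0.97 ± 0.19, SE, adjusted p = 0.0169) and than in ΔETreg skin, which was lower by 1.07 (adjusted p = 0.00501). All 3 ΔLTreg mice were above the other 8. The call against control was lost without either control mouse. Of 6 skeletal muscle markers, 1 passed in ΔLTreg skin against control, the fast myosin Myh4 (5.53, adjusted p = 0.00278), and all 6 had an unadjusted p under 0.05. Of all genes tested, 1.86% rose in that comparison. The 6 markers summed to 1826 to 6856 CPM in ΔLTreg skin, against 1453 and 1526 CPM in control and, overlapping with ΔLTreg skin, 1762 to 3450 CPM in ΔTreg skin. The part of muscle in the Col13a1 result was not tested. Col25a1, a neuronal relative, stood at 1.82 and 1.51 CPM in the control mice, 1.39, 1.91 and 1.11 in the ΔETreg mice, 0.626, 0.549 and 0.939 in the ΔLTreg mice and 0.729, 0.742 and 0.958 in the ΔTreg mice, from 14 to 58 counts a library. It fell in ΔLTreg (-1.23, adjusted p = 0.0378) and ΔTreg skin (-1.03, adjusted p = 0.0246), but not by DESeq2. The ΔLTreg call held in 3 of 11 runs without 1 mouse and was also lost with edgeR on the 2 groups compared. The ΔTreg call held in 7 of 11 such runs. Col23a1, another member, was between 14.7 and 17.0 CPM in all 11 mice. Col28a1, a collagen of peripheral nerve, stood at 14.3 and 9.32 CPM in the control mice, 11.6, 11.1 and 10.2 in the ΔETreg mice, 7.75, 7.65 and 7.48 in the ΔLTreg mice and 7.63, 6.65 and 5.69 in the ΔTreg mice. This gene fell in ΔTreg skin (-0.83, adjusted p = 0.00489), a call lost without control mouse 1. Of 5 genes listed as Schwann cell markers, Sox10 fell there (-0.48, adjusted p = 0.00922) and 4 did not pass, where 9.39% of all genes fell. Whether Sox10 fell in Schwann cells or in other cells of the skin was not tested.

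Ratios of chains within a mouse do not depend on how libraries are scaled. They were computed for 8 pairs from counts per kilobase of transcript, a choice made after the values were seen, and compared with two-sided exact permutation tests, which cannot go below p = 0.1 with 3 mice against 3 or 2. Col1a1/Col1a2 was 1.19 and 1.31 in the control mice, 1.15, 1.27 and 1.27 in the ΔETreg mice, 1.34, 1.28 and 1.33 in the ΔLTreg mice and 1.29, 1.28 and 1.28 in the ΔTreg mice. Every ΔETreg mouse was below every ΔLTreg mouse (exact p = 0.1, 0.2 adjusted over 40 tests), and the other groups compared overlapped. Col3a1/Col1a1 was 0.855 and 0.713 in the control mice, 0.86, 0.794 and 0.751 in the ΔETreg mice, 0.665, 0.679 and 0.643 in the ΔLTreg mice and 0.924, 0.917 and 0.956 in the ΔTreg mice. In ΔTreg skin, type III was thus higher relative to type I than in every ΔLTreg, ΔETreg and control mouse, with a mean of 0.932 ± 0.0207 (SD, n = 3) against 0.662 ± 0.0184 in ΔLTreg skin (exact p = 0.1, 0.2 adjusted over 40 tests).

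Col5a1/Col5a2 was 1.45 and 1.51 in the control mice, 1.38, 1.51 and 1.6 in the ΔETreg mice, 1.63, 1.53 and 1.44 in the ΔLTreg mice and 0.973, 1.1 and 0.991 in the ΔTreg mice. Col4a1/Col4a2 was 1.35 and 1.33 in the control mice, 1.33, 1.36 and 1.31 in the ΔETreg mice, 1.27, 1.36 and 1.34 in the ΔLTreg mice and 1.18, 1.17 and 1.17 in the ΔTreg mice. Both were lower in every ΔTreg mouse than in all 8 other mice. The means of ΔTreg and ΔLTreg skin were 1.02 ± 0.0684 and 1.53 ± 0.0918 for the type V pair and 1.17 ± 0.00619 and 1.32 ± 0.0484 for the type IV pair (exact p = 0.1 for each). Within type VI, Col6a1/Col6a2 stayed between 0.85 and 0.937 in all mice. Col6a3/Col6a1 was 0.576 and 0.532 in the control mice, 0.541, 0.581 and 0.541 in the ΔETreg mice, 0.443, 0.466 and 0.492 in the ΔLTreg mice and 0.332, 0.284 and 0.319 in the ΔTreg mice. Col6a3 was thus lower relative to Col6a1 in both P13 groups than in the other mice, and lowest in ΔTreg skin. Col6a5/Col6a3 was 0.00758 and 0.00563 in the control mice, 0.00467, 0.00442 and 0.00659 in the ΔETreg mice, 0.0154, 0.0153 and 0.0124 in the ΔLTreg mice and 0.157, 0.146 and 0.101 in the ΔTreg mice. For Col4a5/Col4a6, control mice alone ranged from 2.52 to 3.27, and the ΔTreg mean was 2.30 ± 0.0383 (SD, n = 3).

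**Figure D5:**
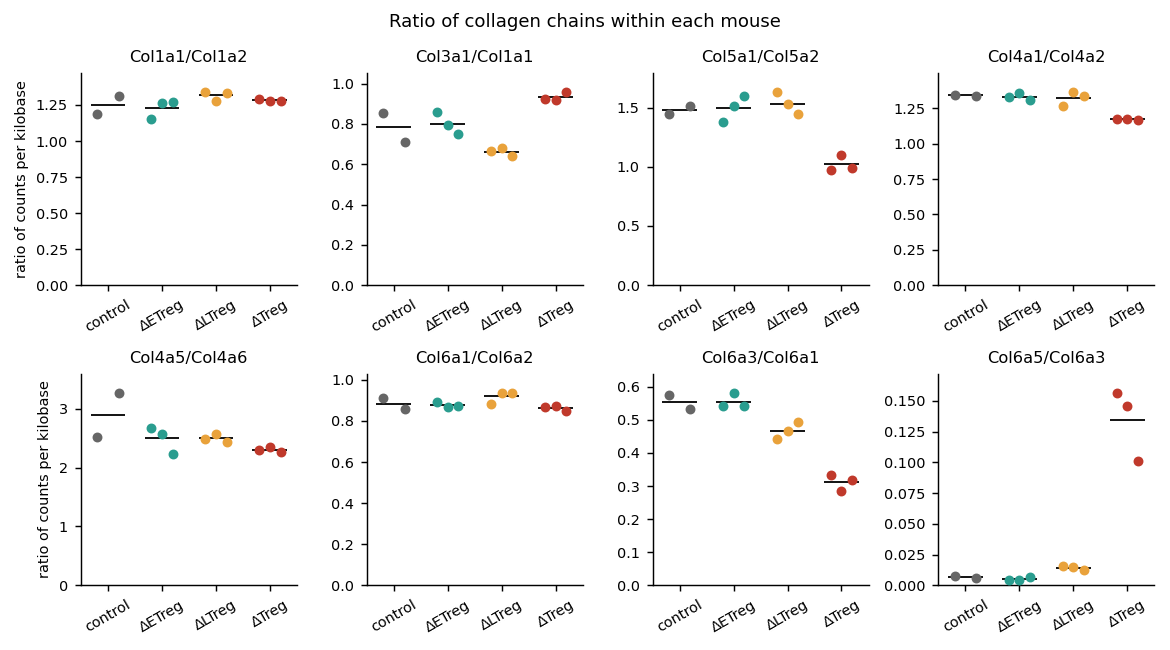
Ratio of 2 collagen chains within each mouse, from counts per kilobase of transcript, on linear axes starting at 0; points are mice and bars are group means. Col1a1/Col1a2 stays between 1.15 and 1.34 and Col6a1/Col6a2 between 0.85 and 0.937 in all mice. ΔTreg mice are lowest for Col5a1/Col5a2, Col4a1/Col4a2 and Col6a3/Col6a1, and they are highest for Col3a1/Col1a1 and Col6a5/Col6a3.

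Genes that act on collagens were followed through lists of enzymes, matrix partners and receptors. Their shares are to be read against 16.8% of all genes tested called in ΔTreg against ΔLTreg skin, 21.5% in ΔTreg skin against control and 6.38% in ΔETreg against ΔLTreg skin. Of 19 genes for chain modification and folding, ΔTreg skin had 5 above and 0 below ΔLTreg skin (26.3% called; 14 did not pass by edgeR, and 6 of the 19 had an unadjusted p under 0.05). They included the lysyl hydroxylases Plod1 (0.82, adjusted p = 9.3e-05) and Plod3 (0.47, adjusted p = 0.00514), which modify lysines of the helix for later cross-links. Against control 4 rose in ΔTreg skin and 4 fell (42.1% called), among them Fkbp14 (-0.79, adjusted p = 0.0031), a chaperone that acts on collagens III and VI. Of 12 tested genes for propeptide cleavage and cross-linking, 2 were higher than in ΔLTreg skin (25% called with 1 lower), the lysyl oxidase relative Loxl4 (1.52, adjusted p = 0.00184) and the propeptidase Tll1 (1.07, adjusted p = 0.00059), and the 1 lower was the N-propeptidase Adamts3 (-0.90, adjusted p = 0.0336).

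Of 15 fibril-associated matrix genes, 2 passed upward and 1 downward in ΔTreg against ΔLTreg skin (20% called, near the share of all genes). Prelp, a leucine-rich proteoglycan that anchors basement membranes, stood at 44.5 and 57.8 CPM in the control mice, 54.9, 58.3 and 48.8 in the ΔETreg mice, 46.2, 42.5 and 25.6 in the ΔLTreg mice and 89.2, 74.8 and 78.9 in the ΔTreg mice (1.09, adjusted p = 0.00202). Postn, a matricellular protein that binds type I collagen, stood at 579 and 517 CPM in the control mice, 458, 542 and 408 in the ΔETreg mice, 374, 416 and 186 in the ΔLTreg mice and 723, 622 and 579 in the ΔTreg mice (0.98, adjusted p = 0.0162). The list's median was 0.07 there, and -0.45 in ΔTreg skin against control, where 4 fell and 2 rose (40% called). Of 15 basement membrane partners, 7 stood higher and 1 stood lower in ΔETreg than in ΔLTreg skin (53.3% called), and 6 fell and 1 rose in ΔTreg skin against control (46.7% called). The 1 that rose was Lama1, a laminin chain of early basement membranes, at 0.595 and 0.916 CPM in the control mice, 0.871, 1.05 and 1.11 in the ΔETreg mice, 1.88, 1.76 and 1.75 in the ΔLTreg mice and 6.99, 7.13 and 7.61 in the ΔTreg mice (3.27, adjusted p = 1.9e-06). It was higher in ΔTreg than in ΔLTreg skin as well (2.01, adjusted p = 7e-06).

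Of 9 collagen receptors, ΔTreg skin had 4 above and 0 below ΔLTreg skin (44.4% called, 6 with an unadjusted p under 0.05), led by Lair1, an inhibitory receptor of leukocytes (2.39, adjusted p = 0.00265), and the integrin chain Itga1 (0.30, adjusted p = 0.0243). Of 13 genes of the TGF-beta pathway, which drives collagen synthesis in fibroblasts, 3 were higher and 0 lower (23.1% called, 4 with an unadjusted p under 0.05). They included the ligand Tgfb1 (0.71, adjusted p = 4.1e-05) and the receptor chain Tgfbr2 (0.74, adjusted p = 0.00161). In the same skin no fibrillar collagen was higher than in ΔLTreg mice, with 0 of 11 called in either direction by edgeR and 3 of 11 at an unadjusted p under 0.05. DESeq2 called 0 of the 11 as well, and edgeR without ΔLTreg mouse 3 called Col1a1, Col1a2 and Col5a1 lower. A link between the TGF-beta genes and these collagens was not tested.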

How the data were processed

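Whole skin RNA of 11 Foxp3-DTR mice was sequenced by the authors, trimmed with Trimmomatic 0.36, aligned to GRCm38 with STAR 2.5.2b and counted on exons with featureCounts of Subread 1.5.2, per the labels and the submitters' processing notes. The authors deposited raw counts for 49315 genes, without normalization or filtering. The annotation release and the strand setting of counting are not given in the sources used here, so reads of overlapping genes cannot be told apart. All libraries carry the same batch label, and no column of the table was left unmapped.

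Groups were taken from the treatment labels, and mice were numbered in accession order, which pairs nothing. Genes were filtered with filterByExpr (18375 left), scaled by TMM and fitted in edgeR 4.0.16 (R 4.3.3, limma 3.58.1) with 1 mean for each of the 4 groups over all 11 libraries (common dispersion 0.012). 5 comparisons were tested by the quasi-likelihood F test, with p-values adjusted by Benjamini-Hochberg over the 18375 genes and a threshold of 0.05. Standard errors are the log2 fold change over the square root of F. CPM used TMM-scaled library sizes. RPKM and chain ratios divided by the length of the principal transcript of GENCODE M21 (GRCm38), and promoters came from RefSeq (GRCm38.p6). The fits were tested on simulated data.

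Collagen classes and lists of partners and cell type markers were written with earlier results of these data known. Named were Col1a1, Col1a2, Col3a1, Col5a1, Col5a2, Col4a1, Col4a2, Col7a1, Col17a1, Col6a1, Col6a2, Col6a3, Col12a1 and Col14a1, the 3 members of each class with the smallest adjusted p in each comparison and 2 genes of each partner list by ΔTreg against ΔLTreg. Other genes are named because they passed, fill a class or are markers, and were chosen after their values were seen. The values of 1 listed gene are not reported here.

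Alternatives were DESeq2 1.42.0, edgeR on the 2 groups compared, DESeq2 size factors, library size alone, collagens left out of scaling, no filter, at least 10 counts in every library, and each mouse left out. Replicate pairs had a median chi-square per gene of 1.01 to 3.55, where counting error alone gives 0.455, so no library was a copy of another. No source says that the mice of a group came from separate litters, and p-values measure the spread between these mice. Reads carry no molecular identifiers, so counting error is a lower bound on technical error.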

Additional observations from a re-analysis of the deposited data

How the results depend on the processing

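No paired analysis was possible because the labels give no replicate numbers that link mice across groups. Of single-gene fold changes, 480 of 545 values under the 7 other settings kept their direction and their side of the threshold, 51 passed only under the alternative (31 of them without a filter) and 11 passed only in the reported fit. The 3 that changed sign were Col7a1 in ΔTreg against ΔLTreg skin, at 0.0016 with DESeq2 size factors, 0.0014 with collagens left out of scaling and 0.0033 with at least 10 counts in every library. No scaling moved the median of all genes by over 0.1 on the log2 scale. With edgeR on the 2 groups compared, 3 collagens fell and 0 rose in ΔLTreg skin against control and 5 rose in ΔTreg skin, as 5 did with DESeq2. Without a filter, 24 fell in ΔLTreg and 6 rose in ΔTreg skin against control, 8 passed upward and 9 downward in ΔTreg against ΔLTreg skin, and 22 were higher and 2 lower in ΔETreg than in ΔLTreg skin. The cause was not tested. Without Col1a1, Col1a2 and Col3a1 the collagen shares were 0.538% for the control, 0.538% for the ΔETreg, 0.388% for the ΔLTreg and 0.429% for the ΔTreg mice, since those 3 genes hold most collagen counts.

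With each mouse left out in turn, collagens called against control numbered 0 to 0 in ΔETreg, 5 to 10 lower and 0 to 1 higher in ΔLTreg, and 10 to 21 lower and 1 to 3 higher in ΔTreg skin. Against ΔLTreg skin, 3 to 5 were higher and 2 to 7 lower in ΔTreg skin, and 5 to 11 higher and 1 to 1 lower in ΔETreg skin. Falls in ΔLTreg skin against control numbered 6 without control mouse 1, 5 without control mouse 2 and 6 without ΔLTreg mouse 2. The rise there was lost without either control mouse. In ΔTreg skin 1 rose against control without control mouse 2, ΔTreg mouse 1 or ΔTreg mouse 2, 3 were higher than in ΔLTreg skin without ΔTreg mouse 1, and in ΔETreg skin 5 were higher than in ΔLTreg skin without ΔETreg mouse 2. Shares ranged over 2.29% to 2.60%, 2.10% to 2.65%, 1.60% to 2.12% and 1.36% to 1.44% in control, ΔETreg, ΔLTreg and ΔTreg skin. In ΔTreg against ΔLTreg skin 4 fold changes changed sign with a mouse left out, those of Col3a1 (-0.44 to 0.060), Col5a2 (-0.0038 to 0.41), Col4a2 (-0.013 to 0.057) and Col7a1 (-0.039 to 0.053), and none of these was called.

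The limits of these data are the 2 control mice of unrecorded age, the 3 mice in each other group, and whole tissue as the sample. Col25a1 and Col6a4 had 58 counts a library or fewer and lost calls without single mice, as did Col1a1 and Col18a1 with far more counts. The part of depth was not tested.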

Other observations

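Marker lists of other cells that lay beside the collagens, written with earlier results known, gave the following values. Of 6 pericyte and smooth muscle markers, Myh11, a contractile myosin, and Des, an intermediate filament, rose in ΔLTreg skin against control (0.75, adjusted p = 0.0171, and 1.05, adjusted p = 0.0326). Cspg4 and Mcam, both pericyte surface proteins, fell (-0.46, adjusted p = 0.00697, and -0.33, adjusted p = 0.017). Of all genes tested, 1.86% rose and 2.69% fell in that comparison. The 6 markers summed to 594 and 633 CPM in control, 648 to 785 in ΔLTreg and 608 to 630.1 in ΔTreg skin. In ΔTreg skin Acta2, the smooth muscle actin, fell against control (-0.59, adjusted p = 0.00519), together with Cspg4 and Mcam, where 9.39% of all genes fell. Between ΔTreg and ΔLTreg skin none of the 6 passed by edgeR, with 3 at an unadjusted p under 0.05.

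Of 5 adipocyte markers, Adipoq was lower in ΔTreg than in ΔLTreg skin (-2.19, adjusted p = 0.0432), where 6.11% of all genes were lower. All 5 fold changes were below 0. Of 3 bone markers tested, Alpl fell (-0.78, adjusted p = 0.00391) and Dmp1 rose in ΔTreg skin against control (3.98, adjusted p = 0.0158). In that comparison 9.39% of all genes fell and 12.1% rose. The 5 bone markers listed, Dmp1 among them, summed to 7.07 and 8.76 CPM in control and to 4.37 to 5.64 CPM in ΔTreg mice, so Dmp1 was at a low level. Of 10 dermal fibroblast markers, Pdgfra and the transcription factor Twist2 fell in ΔLTreg skin (-1.24, adjusted p = 0.0194, and -1.01, adjusted p = 0.0179), where 2.69% of all genes fell against control. Twist2 and Dlk1 fell in ΔTreg skin (-0.62, adjusted p = 0.0428, and -2.39, adjusted p = 0.00018), where 9.39% of all genes fell. Pdgfra, the surface receptor by which dermal fibroblasts are sorted, stood at 63.8 and 63.5 CPM in the control mice, 67.2, 69.8 and 51.1 in the ΔETreg mice, 32.5, 32.5 and 15.7 in the ΔLTreg mice and 57.2, 48.2 and 58.1 in the ΔTreg mice. Dlk1, a marker of deep dermal fibroblasts, stood at 43.5 and 40.6 CPM in the control mice, 32.4, 44.1 and 52.6 in the ΔETreg mice, 45.7, 37.5 and 52.2 in the ΔLTreg mice and 8.4, 4.72 and 11.1 in the ΔTreg mice. The 2 markers thus split the P13 groups, with Pdgfra lowest in ΔLTreg and Dlk1 lowest in ΔTreg mice.

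ΔETreg and ΔLTreg skin differed in age as well as in the doses. In the test between them, 2 of 9 collagen receptors were higher in ΔETreg skin, where 3.27% of all genes were higher and 3.12% lower. These receptors were Itga11 (1.16, adjusted p = 0.00627), the integrin chain of fibroblasts that binds fibrillar collagen, and Itga1 (0.68, adjusted p = 0.00112). Among the fibril-associated matrix genes, Aspn, a leucine-rich proteoglycan, was higher (1.03, adjusted p = 0.0186) and Fmod, another one, lower (-0.95, adjusted p = 0.0129). Against control, Fmod rose in ΔLTreg (0.97, adjusted p = 0.0251) and in ΔTreg skin (1.52, adjusted p = 0.00044), while Aspn and Thbs2 fell in both, by 1.51 for Aspn and 1.71 for Thbs2 in ΔTreg skin (adjusted p = 0.00103 and 0.00249).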
